A study of Homo sapiens with 8 samples.

Results

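Of 9 genes for ephrin receptors and their membrane-bound ligands, the ephrins, 6 were lower in DLD1 colorectal cancer (CRC) cells that overexpressed TRMT6/TRMT61A and 3 did not pass the test. The members were taken by name from a table of 58302 genes, namely the receptors EPHA1, EPHA2, EPHB2, EPHB3 and EPHB4 and the ephrins EFNA1, EFNA4, EFNB1 and EFNB2. All 9 passed the filter on low counts, as did 14133 genes of the table. They were chosen by name with no measured value in the rule, although earlier results of these data were known.

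Human DLD1 is an established line from a colorectal adenocarcinoma with a truncated APC protein. OE-WT cells carried lentiviral pCDH constructs for TRMT6 and TRMT61A, the subunits of an m1A methyltransferase of tRNA, and CTRL cells carried the empty vector, so that transduction was shared by both groups. The sample labels give joint overexpression, while the design text of the series can be read as separate lines for each gene. Whether the stable lines were clonal or pooled, and which promoter drove the constructs, was not given in the sources used here. Each group had 2 libraries, each sequenced on 2 lanes and deposited as 1 column of counts, and p-values measure only the spread between these libraries.

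Eph receptors are the largest family of receptor tyrosine kinases. They bind ephrins on neighbouring cells, so that contact sends a forward signal into the receptor-bearing cell and a reverse signal into the ephrin-bearing cell. A-type ephrins hang on a lipid anchor and mostly bind EphA receptors, whereas B-type ephrins cross the membrane and mostly bind EphB receptors. In the intestine, beta-catenin/TCF activity keeps EphB2 and EphB3 high at the crypt base and ephrin-B ligands lie towards the villus or surface, an opposition that positions epithelial cells along the crypt axis. EphA2 is often abundant in carcinomas.

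The 4 libraries held between 10327498 and 12379671 counts. TRMT6 was measured with 2092 and 1841 counts in OE-WT against 677 and 683 in CTRL (log2 fold change 1.86, SE 0.08, adjusted p = 8.5e-13, edgeR quasi-likelihood test), and TRMT61A with 1365 and 1327 against 758 and 700 (1.21, SE 0.07, adjusted p = 1.9e-10). Both genes therefore stood higher in every library labelled OE-WT. Across all genes tested, 1642 fell and 1334 rose at the 0.05 threshold of the adjusted p, with a median log2 fold change of 0.01, and with library size as the only scaling the split was 2451 lower and 733 higher. Of 10 colon epithelium markers 9 were tested, of which 3 fell (CDH1, KRT19 and KRT20) and 2 rose (KRT8 and KRT18, the most abundant). That is 33.3% lower and 22.2% higher, beside 11.6% and 9.44% of all genes tested. The 10 markers summed to 12109 to 12452 CPM (counts scaled by library size) in OE-WT and 10875 to 11077 in CTRL. The call of KRT19 was lost with DESeq2, RLE factors, a replicate block and the GC trend removed. That of KRT8 was lost with library size only and with a replicate block, and that of KRT18 with library size only. With 1 library left out the log2 fold change ranged from 0.22 to 0.28 for KRT8, from 0.26 to 0.33 for KRT18 and from −0.26 to −0.13 for KRT19. In these fits KRT8 kept its call only without CTRL replicate 1, and KRT19 only without OE-WT replicate 2. KRT18 lost its call without OE-WT replicate 2. KRT20 had the largest change among the 5 (83 and 101 counts against 349 and 312, log2 fold change −1.52, SE 0.13, adjusted p = 7.0e-08, edgeR) and CDX1 had at most 1 count. Summed markers of endothelium (1.81 to 2.06 against 1.70 to 2.88 CPM), fibroblasts (2.46 to 3.22 against 2.27 to 2.41 CPM) and leukocytes (1.77 to 1.91 against 1.87 to 3.34 CPM) were low beside a limit of 3 counts, which is 0.233 to 0.302 CPM per gene. COL1A1 (18 to 22 counts) and CD14 (14 to 31) did not pass. The endothelial marker VWF fell (5 and 6 counts against 30 and 14, −1.65, adjusted p = 0.018, edgeR) but was not called by DESeq2. CDH5, KDR, COL1A2, COL3A1, DCN and CD3E were at 0 in every library.

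Of the 9 members, 6 fell at an adjusted p below 0.05, which is 66.7%, beside 11.6% of all genes tested. None rose, beside 9.44% of all genes tested, and none rose at an unadjusted p below 0.05 or with DESeq2 or edgeR's exact test. The 6 were EPHA1, EPHA2, EPHB3, EPHB4, EFNA1 and EFNB1. EPHB2, EFNA4 and EFNB2 did not pass. The fitted log2 fold change was negative for 9 of 9, with a median of −0.41 beside 0.01 for all genes tested. In 8 of 9 both OE-WT libraries lay below both CTRL libraries, beside 30.2% of all genes tested. The changes were small. Under the study's own thresholds (a log2 fold change beyond 1 in either direction with an unadjusted p below 0.05) 0 of 9 were called by edgeR, beside 3.15% of all genes tested. DESeq2 called 0 of 9 as well, beside 288 of 14133 genes. At shares this low, 0 of 9 does not set the members apart. An unadjusted p below 0.05 was reached by 8 of 9. In RNA from a bulk culture, fewer cells expressing a gene and less RNA per expressing cell cannot be told apart.

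**Figure D1:**
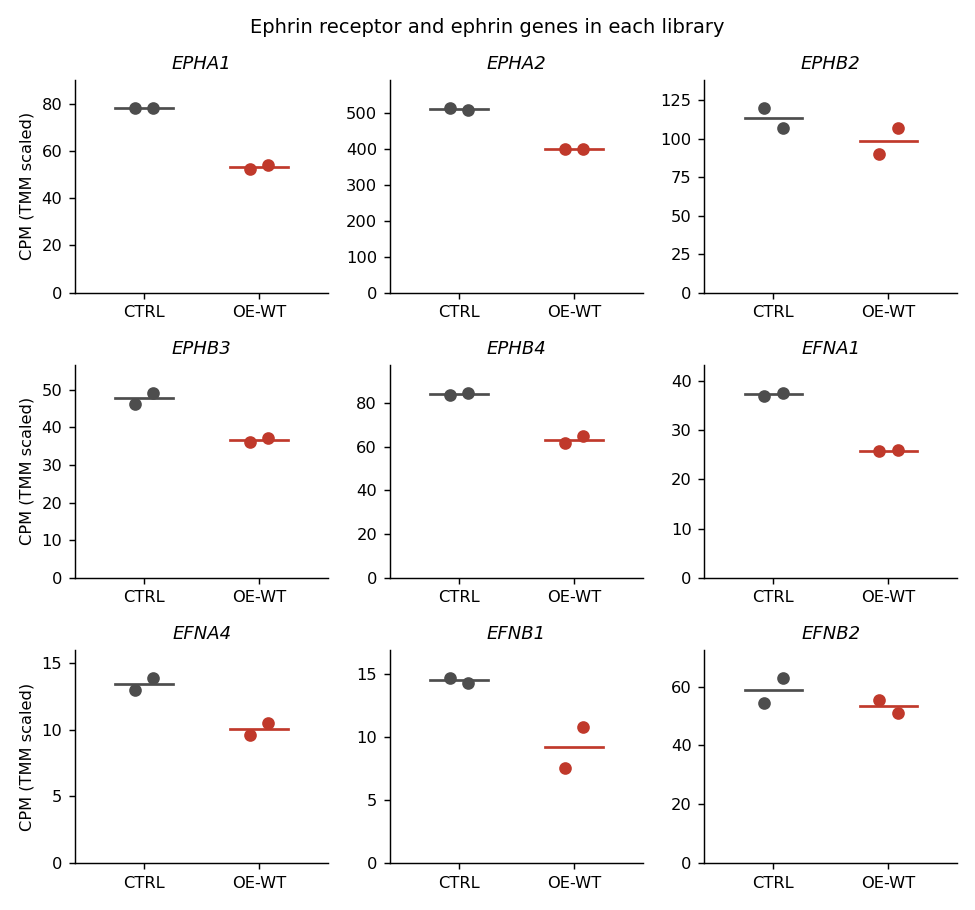
CPM on TMM-scaled library sizes (y axis, from 0) of the 9 members in CTRL and OE-WT cells. Each point is 1 library and each bar the mean of 2; only for EFNB2 do the groups overlap, and for EPHB2 the highest OE-WT library (106.7 CPM) almost reaches the lowest CTRL library (107.1 CPM).

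Positions are those of GENCODE release 44 on GRCh38, and counts are per gene. Among the A-class receptors, EPHA2 (ENSG00000142627, chr1:16124337-16156069, minus strand) was the most abundant member. It is the receptor that most often carries ligand-independent as well as ephrin-driven signals in epithelial cancers. Its level was 399.4 and 399.6 CPM in OE-WT and 514.9 and 507.3 CPM in CTRL, from 3965, 4066, 6624 and 6249 counts. The OE-WT libraries were almost equal and both clearly below the CTRL libraries. EPHA2 fell by 0.36 on the log2 scale (SE 0.06, adjusted p = 0.00034, edgeR), which is 21.8% lower.

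EPHA1 (ENSG00000146904, chr7:143390289-143408856, minus strand), the first receptor of the family to be named, was measured at 52.5 and 53.9 CPM in OE-WT and at 78.4 CPM in each CTRL library. The counts were 521 and 548 against 1008 and 966. The separation between groups was many times the spread within them. EPHA1 fell by 0.56 (SE 0.07, adjusted p = 1.3e-05, edgeR), or 32.2%, the largest decrease among the 5 receptors. The ratio of the per-length level of EPHA1 to that of EPHA2 was 0.116 and 0.119 in OE-WT and 0.134 and 0.136 in CTRL, so that the 2 libraries of each group lay together and apart from the other group, but the exact two-sided permutation p of 2 against 2 libraries cannot go below 0.333.

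Of the B-class receptors, EPHB4 (ENSG00000196411, chr7:100802565-100827523, minus strand), which pairs mainly with ephrin-B2, had 611 and 661 counts in OE-WT against 1074 and 1044 in CTRL, or 61.6 and 65.0 against 83.5 and 84.7 CPM. Each group was tight and the groups did not overlap. EPHB4 fell by 0.41 (SE 0.07, adjusted p = 0.00031, edgeR), or 24.8%.

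EPHB3 (ENSG00000182580, chr3:184561785-184582408, plus strand), a crypt-base receptor and TCF target, had 358 and 377 counts against 595 and 606, or 36.1 and 37.1 against 46.3 and 49.2 CPM. It fell by 0.38 (SE 0.08, adjusted p = 0.0024, edgeR). This call was lost once the GC trend of each library was taken out (−0.22, adjusted p = 0.066), the highest of its adjusted p-values under the alternatives, which started at 0.00011.

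EPHB2 (ENSG00000133216, chr1:22710839-22921500, plus strand), the other crypt-base receptor, did not separate the groups as clearly. Its counts were 895 and 1086 in OE-WT and 1547 and 1319 in CTRL, or 90.2 and 106.7 against 120.3 and 107.1 CPM. The second library of each group lay at nearly the same level, and only the first libraries stood apart. The log2 fold change was −0.21 (SE 0.08, adjusted p = 0.073, edgeR), so the difference did not pass. With 1 library left out it ranged from −0.35 to −0.09, and it passed without OE-WT replicate 2 (adjusted p = 0.0029) and without CTRL replicate 2 (adjusted p = 0.010). Over all alternatives its adjusted p ran from 0.0029 to 0.56.

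Among the ephrins, EFNA1 (ENSG00000169242, chr1:155127876-155134899, plus strand), the main ligand of EphA2 in epithelium, had 255 and 264 counts in OE-WT against 475 and 463 in CTRL, or 25.7 and 25.9 against 36.9 and 37.6 CPM. The replicates of each group nearly coincided. EFNA1 fell by 0.53 (SE 0.09, adjusted p = 0.00031, edgeR), or 30.7%. The per-length ratio of EFNA1 to EPHA2 was 0.123 and 0.124 in OE-WT against 0.137 and 0.142 in CTRL (exact permutation p = 0.333, the smallest that 2 against 2 allows). Ligand and receptor both fell, and their ratio was lower in each OE-WT library. Against EPHA1 the ratio of EFNA1 was instead higher, at 1.06 and 1.05 in OE-WT and 1.02 and 1.04 in CTRL (exact permutation p = 0.333).

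EFNA4 (ENSG00000243364, chr1:155063737-155069553, plus strand), the other A-type ephrin among the members, was sparse, with 95 and 107 counts in OE-WT against 167 and 171 in CTRL, or 9.57 and 10.5 against 12.98 and 13.9 CPM. The groups did not overlap. The log2 fold change of −0.42 (SE 0.15) had an adjusted p of 0.0500017 that lay just above the threshold with edgeR's quasi-likelihood test, and over the alternatives the adjusted p ran from 0.012 to 0.26. It passed with RLE size factors, with library size only and with edgeR's exact test.

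EFNB1 (ENSG00000090776, chrX:68829021-68842160, plus strand), a B-type ephrin, showed the largest fitted decrease of the 9 members but also the widest spread. The counts were 75 and 110 in OE-WT and 189 and 176 in CTRL, or 7.56 and 10.8 against 14.7 and 14.3 CPM. The first OE-WT library was the lowest, while the CTRL libraries agreed closely. EFNB1 fell by 0.66 (SE 0.16, adjusted p = 0.0063, edgeR). Without OE-WT replicate 1 the value was −0.42 and the call was lost (adjusted p = 0.12, against 0.00028 to 0.048 under the other alternatives), and without OE-WT replicate 2 it was −0.95.

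EFNB2 (ENSG00000125266, chr13:106489745-106535662, minus strand), the other B-type ephrin, had 551 and 521 counts in OE-WT against 702 and 777 in CTRL. On the CPM scale these were 55.5 and 51.2 against 54.6 and 63.1, so the groups overlapped. The log2 fold change was −0.14 (SE 0.08, adjusted p = 0.26, edgeR), and the difference did not pass. With the 2 B-type ephrins set side by side, the per-length ratio of EFNB1 to EFNB2 was 0.206 and 0.320 in OE-WT and 0.408 and 0.343 in CTRL. The ratio of EFNB2 to EPHB4, its usual receptor, was 1.16 and 1.01 in OE-WT and 0.841 and 0.957 in CTRL, and that of EFNB1 to EPHB2 was 0.318 and 0.384 against 0.463 and 0.506. These 3 ratios did not overlap between groups, and each had the smallest exact permutation p possible here, 0.333, so that none could pass a threshold of 0.05. The ratio of EPHB3 to EPHB2 did overlap (1.11 and 0.959 against 1.06 and 1.27, exact permutation p = 0.667).

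**Figure D2:**
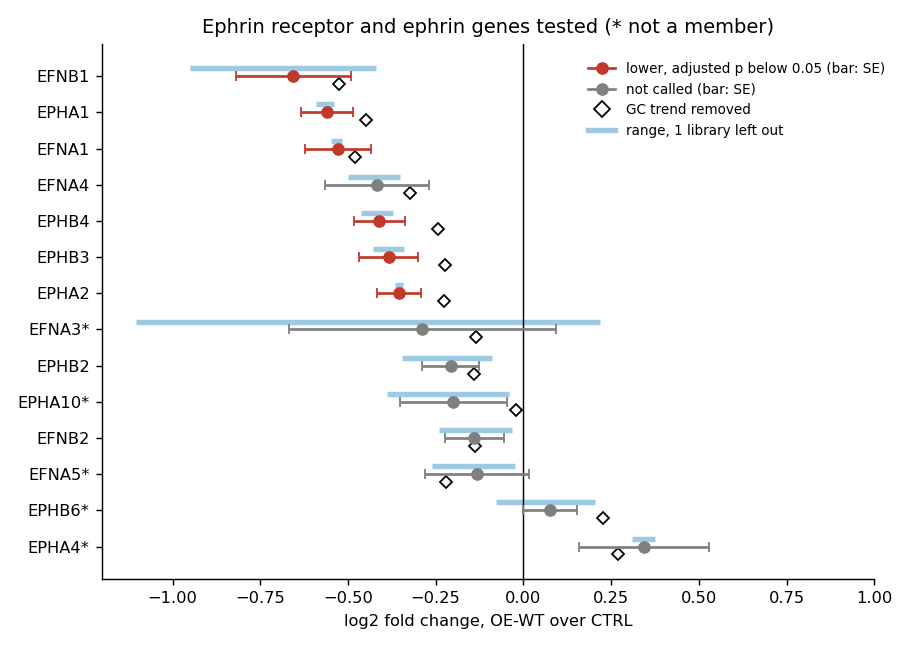
log2 fold change of OE-WT over CTRL (x axis) for the 14 tested genes of the family; circles with SE bars are the edgeR estimates, diamonds those with a GC trend removed and blue bars the range with 1 library left out. The 9 members lie at or below −0.14, and EPHA4 (0.34) and EPHB6 (0.08) are the genes above 0.

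Since 6 of 9 members fell and 0 rose, the 250 bases before the start of each were read from RefSeq promoters on GRCh38.p14, where 20 of 22 family genes and 9 of 9 members matched. Sequences of 5 members are shown, the most abundant receptor (EPHA2), the receptor and the ephrins with the largest decreases (EPHA1, EFNA1, EFNB1), and EFNB2, which did not pass. They run 5′ to 3′ on the gene's strand, and capitals mark every GC box, GGGCGG or its complement CCGCCC. EPHA2 is at chr1:16156070-16156319 (minus strand), EPHA1 at chr7:143408857-143409106 (minus), EFNA1 at chr1:155127626-155127875 (plus), EFNB1 at chrX:68828771-68829020 (plus) and EFNB2 at chr13:106535663-106535912 (minus).
EPHA2: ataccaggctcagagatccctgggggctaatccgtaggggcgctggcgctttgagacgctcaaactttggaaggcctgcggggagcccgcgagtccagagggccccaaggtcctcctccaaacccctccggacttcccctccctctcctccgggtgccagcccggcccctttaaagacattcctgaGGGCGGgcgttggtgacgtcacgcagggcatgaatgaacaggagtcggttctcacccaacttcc
EPHA1: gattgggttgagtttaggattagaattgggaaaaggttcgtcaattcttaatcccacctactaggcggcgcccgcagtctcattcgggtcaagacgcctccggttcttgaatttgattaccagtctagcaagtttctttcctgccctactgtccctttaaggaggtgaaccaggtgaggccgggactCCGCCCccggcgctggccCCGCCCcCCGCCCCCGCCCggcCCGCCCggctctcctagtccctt
EFNA1: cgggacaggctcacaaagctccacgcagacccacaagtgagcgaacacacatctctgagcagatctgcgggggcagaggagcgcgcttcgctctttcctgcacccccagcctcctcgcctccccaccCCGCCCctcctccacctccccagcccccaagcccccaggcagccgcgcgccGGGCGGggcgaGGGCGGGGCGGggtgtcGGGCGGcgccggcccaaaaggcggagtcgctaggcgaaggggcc
EFNB1: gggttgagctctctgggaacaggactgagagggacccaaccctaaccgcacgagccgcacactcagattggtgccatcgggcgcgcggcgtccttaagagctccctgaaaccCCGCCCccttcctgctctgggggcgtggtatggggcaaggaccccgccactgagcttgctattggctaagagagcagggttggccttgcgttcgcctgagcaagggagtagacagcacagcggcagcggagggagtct
EFNB2: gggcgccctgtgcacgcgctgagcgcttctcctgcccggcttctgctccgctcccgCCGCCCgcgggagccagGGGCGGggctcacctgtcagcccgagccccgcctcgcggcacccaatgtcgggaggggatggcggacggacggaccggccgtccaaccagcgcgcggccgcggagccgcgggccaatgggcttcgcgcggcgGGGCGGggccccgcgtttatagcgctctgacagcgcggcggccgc

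All of these windows lie directly upstream of the annotated start. On either strand, a GC box, the letters bound by Sp1-type factors, was found in 9 of 9 member promoters, beside 63.7% of promoters of tested genes and 42.6% of all 35093 promoters. It was also found in 10 of the 11 other family promoters matched, all but EPHA3, genes with 0 counts among them. The EPHB6 window lay 7695 bases from the GENCODE start of its gene and the EPHA7 window 128 bases, so neither is directly before that start. EPHA1 and EFNA1 had 5 copies each, EPHB4 had 4, EPHB3 and EFNB2 had 3, EFNA4 had 2, and EPHA2, EPHB2 and EFNB1 had 1, with neighbouring copies allowed to share a base. CCAAT was found in 6 of 9, beside 32.8% of promoters of tested genes. The TCF/LEF core CTTTGA was found in EPHA2 alone, beside 7.94%, and TATAAA in EFNB2 alone, beside 5.87%. No member window held TGANTCA (4.62% of promoters of tested genes), CACGTG (8.22%) or CCGGAAG (14.2%), where N stands for any base. None of the motifs searched contains another. The 9 windows had a median GC content of 70.0%, from 58.4% to 84.8%, beside 64.8% for tested genes. EFNB2, which did not pass, and EPHA1, with a large decrease, both carried several GC boxes. Matches are descriptions of these letters only.

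Levels between genes were compared as CPM per kilobase of exon. In CTRL cells EPHA2 led the family at 122.5 to 124.3, followed by EPHB6, a receptor without kinase activity, at 28.9 to 29.5. EFNA1 (17.1 to 17.4) and EPHA1 (16.7 in both libraries) came next, and then EPHB4 (12.97 to 13.17). EFNB2 (10.9 to 12.6) overlapped with EFNA4 (10.3 to 11.04), and EFNA4 with EPHB3 (10.2 to 10.9). EPHB2 (8.55 to 9.61) and EFNB1 (4.33 to 4.45) were the lowest members. In OE-WT cells the first 4 genes kept this order, and EPHB4 and EFNB2 changed places. The means of EFNA4 and EPHB3 did so too, but their OE-WT libraries overlapped (7.61 and 8.37 against 7.96 and 8.18). EPHB2 (7.20 and 8.53 in OE-WT) overlapped with both. Every member lay above every other gene of the family apart from EPHB6 in each library.

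**Figure D3:**
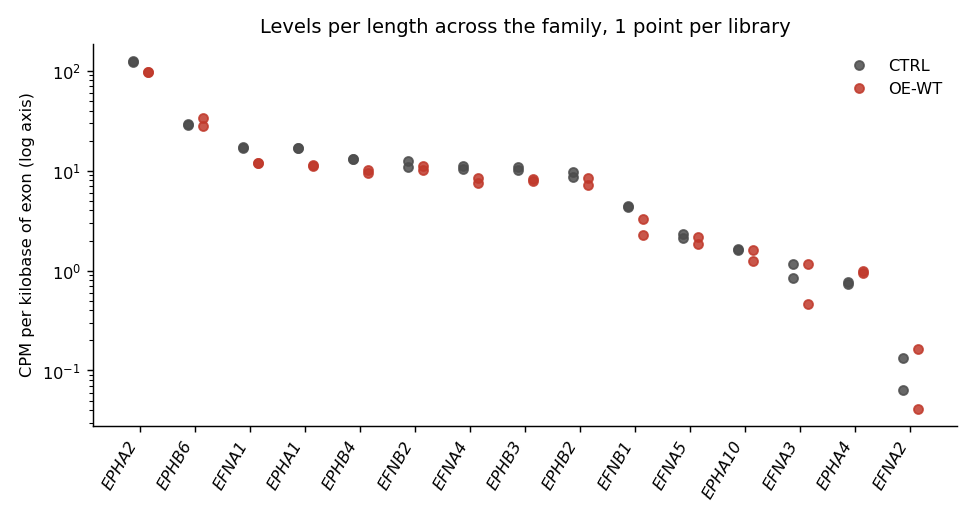
CPM per kilobase of exon (log y axis) of the 15 family genes with counts in every library, ordered by their CTRL mean. Each point is 1 library, grey for CTRL and red for OE-WT; EPHA2 stands near 123 in CTRL and 96.5 in OE-WT, and all members but EFNB2 show OE-WT points below the CTRL points.

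Summed per length over the 14 Eph receptor genes, the level was 162.8 and 170.5 in OE-WT against 205.1 and 203.7 in CTRL, a ratio of 0.816. The 8 ephrin genes summed to 35.2 and 37.4 against 46.3 and 48.4, a ratio of 0.766. For each sum both OE-WT libraries were below both CTRL libraries, and the exact two-sided permutation p was 0.333, the smallest possible. EPHA2 made up 59.2% and 56.6% of the receptor sum in OE-WT and 60.6% and 60.1% in CTRL. The share of EPHB6 was 17.1% and 19.7% against 14.1% and 14.5%, and that of EPHA1 was 6.86% and 6.72% against 8.13% and 8.20%. Among ephrins, the share of EFNA1 was 33.7% and 32.1% against 36.8% and 35.8%, and that of EFNB2 31.5% and 27.4% against 23.5% and 26.0%. The shares of EPHB6 and EFNB2 were thus higher, and those of EPHA2, EPHA1 and EFNA1 lower, in each OE-WT library than in each CTRL library.

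The other 13 Eph and ephrin genes did not share the decrease at a level the test could call. Only 5 of them passed the filter, and 0 of 5 were called by edgeR's quasi-likelihood test, by its exact test, by DESeq2 or at an unadjusted p below 0.05. EPHB6 had 1475 and 1821 counts in OE-WT against 1978 and 1937 in CTRL, or 148.6 and 179.0 against 153.8 and 157.2 CPM, with a log2 fold change of 0.08 (SE 0.08, adjusted p = 0.53, edgeR). With a GC trend removed it was 0.23 and passed (adjusted p = 0.036, over a range of 0.036 to 0.93), with library size as the only scaling it was −0.014, and without OE-WT replicate 2 it was −0.077. The per-length ratio of EPHB6 to EPHB4 was 2.92 and 3.33 in OE-WT and 2.23 and 2.24 in CTRL, which did not overlap (exact permutation p = 0.333). EPHA4 had 74 and 72 counts against 75 and 69 (0.34, SE 0.19, adjusted p = 0.20, edgeR), and EFNA5 (−0.13), EPHA10 (−0.20) and EFNA3 (−0.29) did not pass either. EPHA3, EPHA5, EPHA6, EPHA7 and EPHA8 had 0 counts in every library, and EPHB1, EFNA2 and EFNB3 had at most 4.

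EFNA4, EFNA3 and EFNA1 lie within 71163 bases of chromosome 1 (chr1:155063737-155134899, GRCh38, GENCODE release 44). Of the 17 other tested genes within 100000 bases on either side, 3 fell and 1 rose, with a median log2 fold change of −0.07. Of all genes tested, 11.6% fell and 9.44% rose. Those that fell include ADAM15, a transmembrane metalloprotease next to EFNA4 (−0.34, SE 0.06, adjusted p = 0.0005, edgeR), and SLC50A1, a sugar transporter directly downstream of EFNA1 (−0.51, SE 0.08, adjusted p = 0.0001). MUC1, a membrane mucin, rose by 0.90 (SE 0.26, adjusted p = 0.015), a call lost with DESeq2 (adjusted p = 0.12) and without OE-WT replicate 2 (0.50). The call of ADAM15 was lost with the GC trend removed (−0.18, adjusted p = 0.053). Neighbours between or beside these, such as DPM3 (0.00), SHC1 (−0.07) and ZBTB7B (−0.15), did not pass.

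Shared exons limit a few of these values. EFNA4 shares 189 exon bases (15.0% of its exons) with the readthrough gene EFNA4-EFNA3 on the same strand, and EFNA3 shares 853 (43.9%). The readthrough gene had 0 counts in all 4 libraries, and reads over shared bases may have been set aside in counting. EFNB2 shares 1822 exon bases (36.4% of its exons) with ENSG00000284966, a long noncoding RNA gene on the opposite strand that was not counted. EPHA1 overlaps ZYX by 82 exon bases and EPHB4 overlaps SLC12A9 by 69, each on the opposite strand. ZYX did not pass (−0.09, adjusted p = 0.35, edgeR) whereas SLC12A9, a cation-chloride cotransporter family member, fell (−0.31, SE 0.07, adjusted p = 0.0045), a call lost with the GC trend removed (−0.11, adjusted p = 0.32). EPHA2-AS1, antisense to EPHA2 with no shared exon bases, went the other way, with 27 and 25 counts in OE-WT against 15 and 14 in CTRL (1.16, SE 0.33, adjusted p = 0.015), a call lost without OE-WT replicate 1 or either CTRL library (1.09 to 1.18). The strand setting of the counting was not given in the sources used here, so that reads of EPHA2 and its antisense partner cannot be told apart beyond their exons. For the same reason, reads from the opposite-strand gene may be among those counted for EFNB2.

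Several measured properties moved with the decrease, and their part in it was not tested. Member transcripts had a median GC content of 59.3%, from 50.03% to 62.6%, beside 49.6% for genes tested. After each library was freed of its GC trend, the members had a median log2 fold change of −0.24 and 5 of 9 fell, beside 10.3% of all genes tested, with EPHB3 lost. By hydropathy, 7 of 9 member proteins start with a hydrophobic segment (EFNA4 and EFNB2 did not reach the minimum), of which 6 of 7 fell. Falling short of this cutoff does not show that a protein lacks such a segment. Of the other tested Eph and ephrin genes 4 had one, and 0 of these 4 fell, with a median log2 fold change of −0.03. Among all tested genes with such a segment, typical of proteins made at the endoplasmic reticulum, 33.4% fell with a median log2 fold change of −0.21, beside 8.86% and 0.04 for protein-coding genes without it. The labels describe RNA from the cleared supernatant of a lysate made with cycloheximide, a step usual for ribosome profiling, so whether it was used for these RNA-seq libraries is not certain.

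Of 71 signalling partners of Eph receptors in lists written from general knowledge, 63 were tested, with 7 lower (11.1%, beside 11.6% of all genes tested), 8 higher (12.7%, beside 9.44%) and a median log2 fold change of 0.07. Both shares were near those of all genes. None of the 13 tested adaptors, among them NCK1, GRB2 and CRK, passed with edgeR's quasi-likelihood or exact test or DESeq2, and 2 did at an unadjusted p below 0.05. Of 16 tested kinases and phosphatases 3 fell (18.75%) and 4 rose (25%). PTPRF, a receptor phosphatase that acts on EphA2, fell from 585.3 and 565.0 CPM in CTRL to 371.4 and 371.1 in OE-WT (−0.63, SE 0.06, adjusted p = 4.4e-07, edgeR). PTPRJ, another receptor phosphatase, fell by 0.44 (SE 0.10, adjusted p = 0.0030), and PTPN11, the cytoplasmic phosphatase SHP2, rose by 0.55 (SE 0.11, adjusted p = 0.0015).

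Of 21 tested regulators of small GTPases and their effectors, 1 fell (4.76%, beside 11.6% of all genes tested) and 3 rose (14.3%, beside 9.44%). PAK2, a kinase activated by Rac and Cdc42, rose by 0.36 (SE 0.09, adjusted p = 0.0056, edgeR), a call lost with DESeq2 (adjusted p = 0.053), which called 0 of the 21 genes as higher, and without CTRL replicate 1 (0.23, adjusted p = 0.13). NGEF, the exchange factor ephexin-1 beneath EphA receptors, was the 1 that fell (1 and 6 counts against 12 and 19, −1.79, SE 0.60, adjusted p = 0.036) and is named after its values were seen. Its value was −1.05 without OE-WT replicate 1 and −1.39 without CTRL replicate 2, where the call was lost as it was with every gene of at least 1 count, and −3.49 without OE-WT replicate 2. Of 13 tested scaffolds and membrane partners, 3 fell (23.1%) and 1 rose (7.69%). CLDN4, a tight-junction claudin that EphA2 can phosphorylate, fell by 0.68 (SE 0.07, adjusted p = 8.7e-07), and STAT3, a transcription factor downstream of ephrin-B signals, rose by 0.31 (SE 0.07, adjusted p = 0.0031), a call lost with library size only (adjusted p = 0.053).

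Eph-ephrin contacts are ended by proteases that cut the ectodomains and by gamma-secretase, which cuts the remaining stubs. Of 15 such enzyme genes 9 were tested, with 6 lower (66.7%, beside 11.6% of all genes tested), 0 higher (beside 9.44%) and a median of −0.26. MMP14, a membrane-bound metalloprotease that cleaves EphA2, had 148 and 158 counts in OE-WT against 644 and 560 in CTRL. The level in CTRL was thus several-fold that in OE-WT in every library, and MMP14 fell by 1.65 (SE 0.10, adjusted p = 4.1e-10, edgeR). Of the 6 gamma-secretase subunit genes 5 fell (83.3%). Among them were APH1B (−0.74, adjusted p = 0.0027, edgeR) and PSEN2 (−0.47, adjusted p = 0.0047) and, named after their values were seen, PSENEN (−0.31) and NCSTN (−0.26). With DESeq2 2 of these 6 genes fell, with every gene of at least 1 count 3 and with a replicate block 4. DESeq2 lost, among others, PSEN2 (adjusted p = 0.055) and PSENEN (adjusted p = 0.24). Leaving out CTRL replicate 1 lost NCSTN (−0.20) and PSENEN, and leaving out OE-WT replicate 1 (−0.21) or CTRL replicate 2 (−0.28) lost PSENEN. ADAM10, the main ephrin-A sheddase and also named after its value was seen, had a log2 fold change of −0.22 that did not pass (adjusted p = 0.10).

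EPHB2 and EPHB3 are textbook targets of beta-catenin/TCF. Of 16 other TCF and crypt genes, all tested, 5 rose (31.25%, beside 9.44% of all genes tested) and 2 fell (12.5%, beside 11.6%). The other 9 did not pass, and the median of the 16 was 0.12. LEF1, a TCF-family factor, rose by 1.11 (SE 0.10, adjusted p = 9.4e-08, edgeR), from 234 and 220 counts in CTRL to 383 and 397. LGR5, the crypt stem cell marker, rose by 0.75 (SE 0.07, adjusted p = 2.2e-07) and ASCL2, a transcription factor of the same stem cells, by 0.66 (SE 0.09, adjusted p = 2.3e-05). CD44, an adhesion receptor, fell by 0.81 (SE 0.08, adjusted p = 6.8e-07). NOTUM, a secreted Wnt inhibitor named after its values were seen, fell from 31 and 28 counts in CTRL to 14 and 9 (adjusted p = 0.042). The call of NOTUM was lost with the GC trend removed (−0.82) and with every gene of at least 1 count (−1.05). It was also lost without CTRL replicate 1 (−0.98), CTRL replicate 2 (−1.07) or OE-WT replicate 2 (−0.74). EPHB3 thus fell while LGR5 and ASCL2 rose, and the difference of EPHB2 and EPHB3 from these genes was not tested.

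Other receptor tyrosine kinases and guidance genes were often lower too. Of 44 other receptor tyrosine kinase genes 24 were tested. Of these 12 fell (50%, beside 11.6% of all genes tested). None rose (0%, beside 9.44%), although 1 did at an unadjusted p below 0.05, and 0 with DESeq2 or the exact test. The median log2 fold change of the 24 was −0.39, close to the −0.41 of the members. MERTK, a receptor for engulfing dying cells, fell by 1.39 (SE 0.20, adjusted p = 3.7e-05, edgeR), FGFR4, a fibroblast growth factor receptor, by 1.36 (SE 0.16, adjusted p = 3.7e-06) and LMTK3 by 0.91 (SE 0.16, adjusted p = 0.00038). Of 49 genes of other guidance families, ligands as well as receptors, 31 were tested. Of these 17 were lower (54.8%) and 2 higher (6.45%), with a median of −0.40. SEMA5A, a transmembrane semaphorin, fell by 1.35 (SE 0.13, adjusted p = 3.1e-07), PLXNB1, a semaphorin receptor, by 1.21 (SE 0.14, adjusted p = 3.9e-06) and SEMA7A, a lipid-anchored semaphorin, by 1.20 (SE 0.17, adjusted p = 4.1e-05). NRP2, a co-receptor of semaphorins, rose by 0.41 (SE 0.13, adjusted p = 0.026) and NEO1, a netrin and RGM receptor, by 0.28 (SE 0.08, adjusted p = 0.018). Both calls were lost with DESeq2 (adjusted p of 0.17 and 0.14), with library size only, with every gene of at least 1 count, and without OE-WT replicate 2 (0.30 and 0.22), and also without CTRL replicate 1 for NRP2 (0.34) and CTRL replicate 2 for NEO1 (0.20). The decrease of the 9 members was therefore of the size seen across these lists of receptors and guidance genes, and whether it differed from theirs was not tested.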

How the data were processed

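RNA-seq of 4 DLD1 libraries was used, as whole-number gene counts that the authors deposited in 1 table of 58302 Ensembl genes on GRCh38. The submitters' processing notes name HISAT2 2.2.1, featureCounts 2.0.0 and DESeq2 1.34.0, and the labels poly(A) selection with a stranded kit and 2 replicates, whereas the study's methods give removal of ribosomal RNA, HTSeq and 3 replicates. The annotation release was not given in the sources used here. Each column held both lanes of a library and was matched by its name.

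Counts were filtered with filterByExpr (minimum 10), scaled by TMM and tested with the quasi-likelihood test of edgeR 4.0.16 in R 4.3.3, with group as the only term and p-values adjusted by Benjamini-Hochberg over 14133 genes. The script was tested on simulated data. SE is the absolute log2 fold change over the square root of F. CPM used TMM-scaled library sizes, and levels per length the union of exons in GENCODE 44, which matched 57532 genes. A protein was counted as starting with a hydrophobic segment where any 11 residues in a row among its first 40 averaged 2.0 or more on the Kyte-Doolittle scale. The GC trend was a lowess fit (span 0.3). The other Eph and ephrin genes, TRMT6 and TRMT61A, overlapping or neighbouring genes, and up to 3 increases and 3 decreases per list (adjusted p below 0.05, mean of at least 50 counts) were named beside the members. Members and lists were chosen with earlier results of these data known. Intervals of depth cover counting error only. Alternatives were RLE factors, library size only, DESeq2 1.42.0, the exact test, other filters, a replicate block, the GC trend and leaving out each library; canonical transcript length, the tests with 1 library left out and the calls each named list gene or neighbour lost were chosen after seeing the data. Same-numbered libraries did not deviate together (r = −0.068 across genes), so the numbers were not taken as pairs. A few genes that these rules would name are not reported here.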

Additional observations from a re-analysis of the deposited data

How the results depend on the processing

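The members' log2 fold change stayed negative in 108 of 108 values over 12 alternatives, from −0.95 to −0.03. All of these refit the same libraries, so the values are not independent and their number adds no support. The number of members that fell was 6 with DESeq2, with either other filter and with a replicate block (2658 genes called in all, against 2976), 5 with the GC trend removed, 7 with RLE factors or the exact test, 8 with library size only, and 5 to 7 with 1 library left out, where the lone library of a group was assumed to vary like the other group. The block changed no member's call. DESeq2 called 1373 genes in all. Of all 14133 genes tested, 1642 fell in the main fit, 854 with DESeq2, 1513 with the block and 1456 with the GC trend removed. With RLE factors 1649 fell, with the exact test 1724 and with library size only 2451. The other filters gave 1427 of 26095 (at least 1 count) and 1610 of 13094 (at least 10 counts in every library). The counts of members and lists stand beside these. The count of shedding enzymes that fell was 3 with DESeq2 and 3 to 6 with 1 library left out (3 without CTRL replicate 1). Signalling partners that fell were 4 with DESeq2. Those that rose were 3 with library size only, 3 with every gene of at least 1 count, 2 with DESeq2, 4 with the GC trend removed and 3 to 7 with 1 library left out (3 without CTRL replicate 1 or OE-WT replicate 1). TCF targets that fell were 1 with DESeq2, with either other filter and with the GC trend removed, and 1 to 2 with 1 library left out (2 without OE-WT replicate 1). With library size only, the log2 ratio of the summed levels was −0.38 for receptors and −0.48 for ephrins, against −0.29 and −0.38. With 1 library left out these ranged from −0.33 to −0.26 and from −0.43 to −0.34, and TRMT6 from 1.74 to 1.95. EPHB6 turned to −0.014 with library size only and ranged from −0.077 to 0.20 with 1 library left out (negative without OE-WT replicate 2), and EFNA3 from −1.10 to 0.22 (positive without OE-WT replicate 1). The cause was not tested. Depth limits EFNA4, EFNB1, EFNA3, EFNA5, EPHA4 and EPHA10, which rest on at most 189 counts per library.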
